A study of Mus musculus with 4 samples.

Results

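Sox5 and Sox6 are the partners of Sox9 in cartilage, and open chromatin over both genes was described in primary chondrocytes of mouse rib. Sox5 and Sox6 are 2 of 18217 protein-coding genes found in both gene annotations used. A peak belonged to a gene when its summit lay in the gene body or within 100 kb of either end, and to a start site when its summit lay within 1 kb of an annotated transcription start site (TSS). Cho replicate 1 had 32 such peaks at Sox5 and 37 at Sox6 among 76242 in all. Cho replicate 2 had 109 at Sox5 and 109 at Sox6 among 148330, WT had 39 and 43 among 90971, and the deletion library had 81 and 101 among 169591. The rule rests on gene names and positions.

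Open chromatin was measured by ATAC-Seq, in which the Tn5 transposase inserts adapters where DNA is accessible. The Cho group had 2 replicates of primary rib chondrocytes from newborn mice, with no genotype given in the labels. WT and E160(delta/delta);E308(delta/delta) had 1 library each, from littermates per the study. E160 and E308 are elements upstream of Sox9 on chromosome 11, and both were removed from the germline by genome editing in the deletion mice. Sox5 is on chromosome 6 and Sox6 on chromosome 7, so neither gene lies beside the deleted elements. The study calls the Cho replicates biological, and the number of mice in a library is not given in the sources used here. A comparison of WT with the deletion compares 2 libraries and carries no p-value.

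Sox5 and Sox6 encode SoxD proteins, transcription factors with an HMG box that binds DNA and a coiled coil through which they pair. They lack a known activation domain and bind beside Sox9 at enhancers of cartilage matrix genes such as Col2a1 and Acan. Mice without both proteins form poorly developed cartilage. Sox13 is the remaining member of the SoxD group.

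The libraries differed in depth and in how peaks were called. Depth read from the background ranged from 4622 tags per Mb in WT to 20817 in Cho replicate 2, with 8697 in the deletion library and 6841 in Cho replicate 1. Cho replicate 1 was called with a constant background and the other lists with local ones. Fold enrichment sets the reads piled up at a summit over the background, after adding 1 to either, and is therefore given beside the summit pileup divided by the background of the library, called scaled pileup here. Of 7 chondrocyte marker promoters, 4 held a peak in Cho replicate 1 and 6 in each of the other 3 libraries. Comp held none in any library, and Acan and Matn1 held none in Cho replicate 1. Of 5 fibroblast or osteoblast markers, 4 held a peak in Cho replicate 1 and WT and 5 in Cho replicate 2 and the deletion. Of 3 muscle markers the calls were 0, 1, 1 and 2 in the order Cho replicate 1, Cho replicate 2, WT and deletion. The same order gave 2, 1, 2 and 2 of 3 endothelial markers. Myf5 and Cdh5 held no peak in any library. Of 2 genes of blood cells, Ptprc held none and Spi1 held a peak in the deletion alone, with a fold enrichment of 6.15. A peak was also common at promoters of protein-coding genes in general. The deletion list had one at 71.5% of them and the WT list at 66%. For Cho replicates 1 and 2 the shares were 62.6% and 69.4%. The short marker lists were not tested against these shares, so their counts alone do not show which cells were present. The part of these markers in the peaks of Sox5 and Sox6 was not tested.

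Sequences are shown for 4 sites on which the description turns, namely the strongest start-site region of Sox5 and 3 of the strongest distal sites. They are NCBIM37 reference sequence in the 200 bp around the WT summit. The Sox5 middle promoter is cut to the 184 bp outside annotated exons. Capitals mark matches, on either strand, to AACAAT (bound by Sox proteins, read as ATTGTT on the other strand) and TGANTCA (bound by AP-1, with N any base).
Sox5 middle promoter, upstream stretch, chr6:144158089-144158272, plus strand: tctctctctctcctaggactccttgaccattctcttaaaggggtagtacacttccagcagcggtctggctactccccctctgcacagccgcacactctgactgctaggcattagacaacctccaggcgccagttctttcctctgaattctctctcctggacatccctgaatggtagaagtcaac
Sox5 intron, 707 kb inside, chr6:144023485-144023684, plus strand: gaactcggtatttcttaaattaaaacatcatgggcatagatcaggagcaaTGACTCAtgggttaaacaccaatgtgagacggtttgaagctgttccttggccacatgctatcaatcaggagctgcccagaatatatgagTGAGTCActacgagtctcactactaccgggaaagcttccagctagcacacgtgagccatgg
Sox5 intron, 616 kb inside, chr6:144114705-144114904, plus strand: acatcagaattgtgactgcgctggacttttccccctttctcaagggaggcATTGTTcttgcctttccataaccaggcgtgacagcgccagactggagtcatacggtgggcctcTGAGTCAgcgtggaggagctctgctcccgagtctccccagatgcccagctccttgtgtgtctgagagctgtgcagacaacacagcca
Sox6 upstream, 61.6 kb outside, chr7:123243787-123243986, plus strand: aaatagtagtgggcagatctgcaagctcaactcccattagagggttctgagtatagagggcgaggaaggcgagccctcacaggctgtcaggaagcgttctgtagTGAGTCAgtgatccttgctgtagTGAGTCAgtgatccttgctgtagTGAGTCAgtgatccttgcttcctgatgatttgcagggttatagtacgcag
The searched letters also included TAATCC (Pitx1) and TGTGGT (Runx), which had no match in these 4 windows. The 184 bp shown of the Sox5 middle promoter held no match to any of the 4 motifs, and the exon bases cut from it are not covered. The Sox5 site 707 kb inside the gene held 2 AP-1 matches that start 89 bp apart. The site 616 kb inside held 1 Sox match and 1 AP-1 match. The site 61.6 kb upstream of Sox6 held 3 AP-1 matches that each start 23 bp after the one before, within a short repeat. Of the distal windows read, those shown are the ones with a match. The windows of the Sox5 site at chr6:144005282-144005629 and the Sox6 site at chr7:122897822-122898086 held none and are not shown. A match describes letters only.

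Sox5 covers chr6:143776945-144730497 of NCBIM37 on the minus strand, a span of 954 kb. Its annotated starts fall into 4 places: the 5′ end, a middle promoter about 572 kb inside, a group of non-coding starts just downstream of it, and the start of the shorter transcripts near base 143895626. A short form of Sox5 is known from testis, while cartilage is known for the long form. At the 5′ end, Cho replicate 2 had a fold enrichment of 6.81, WT 5.15 and the deletion 6.24, and Cho replicate 1 had no peak within 1 kb. The peaks there were low, with summit pileups of 22, 6 and 10 reads.

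The middle promoter held the strongest start-site peak of Sox5. Values were 9.29 for Cho replicate 1, 12.5 for WT and 12.4 for the deletion library. Cho replicate 2 is on GRCm38, whose tables used here do not list this start, and its peak at the same distance from the 5′ end had 19.2. All 4 libraries were thus open here, and each value was above that of the 5′ end in its library where a peak was called there. Scaled pileup was 15.3, 84.3, 69.3 and 63.9 in the order Cho replicate 1, Cho replicate 2, WT and deletion, from 21, 165, 25 and 40 reads. The non-coding starts had fold enrichments of 5.91, 13.3, 11.8 and 9.16 in that order. At the start of the shorter transcripts no library had a peak, and the nearest summit lay 16825 to 23723 bp away. A list names only regions past its threshold, so a site without a peak was not detected and is not shown to be closed.

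Sox6 covers chr7:122614858-123182258 on the minus strand, a span of 567 kb with 5 annotated starts. At the 5′ end of the GENCODE annotation, Cho replicates 1 and 2 had fold enrichments of 3.38 and 3.16, WT 5.19 and the deletion 6.98. The Cho summits lay 178 and 13 bp inside the gene, at a site where WT and the deletion had no peak called. The WT and deletion summits lay 961 and 966 bp upstream of the 5′ end, close to the edge of the window. A stronger peak stood 1.57 kb upstream of that end, with fold enrichments of 10.1, 13.0, 10.03 and 11.97 in the order Cho replicate 1, Cho replicate 2, WT and deletion. This peak lies inside the gene as RefSeq draws it, since the RefSeq 5′ end is 2032 bp further out.

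Further in, the second Sox6 start at base 123174561 had 5.91, 5.06 and 4.02 in Cho replicate 1, Cho replicate 2 and the deletion, and no WT peak. The Cho summits lay 225 and 305 bp downstream of this start, and the deletion summit 996 bp upstream, close to the window edge. The deletion peak nearest this start had 2.77, and the nearest WT summit, with 4.39, lay 1381 bp away. These values thus come from different sites. The third start, at base 123138600, had no peak in any library. The fourth, at base 122989619, had none within 1 kb, but 3 libraries had a summit 1480 to 1499 bp away, with fold enrichments of 24.5 (Cho replicate 2), 4.41 (WT) and 12.2 (deletion). The fifth start, at base 122968221, held the strongest start-site peak, 747 to 809 bp upstream of it. There the Cho replicates had fold enrichments of 11.8 and 15.2, WT 13.2 and the deletion 11.4, and scaled pileup was 19.7, 114, 74.9 and 63.9 in the same order.

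**Figure D1:**
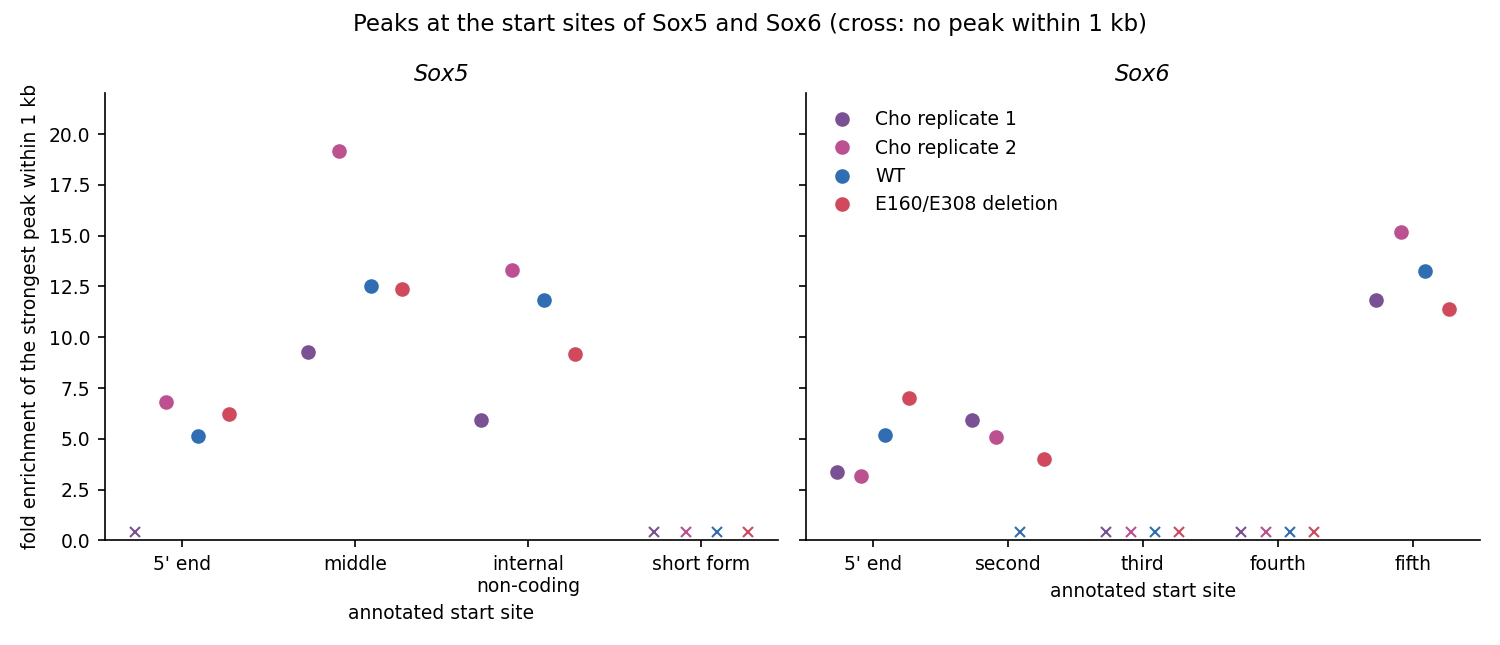
Fold enrichment (y axis) of the strongest ATAC-Seq peak within 1 kb of each annotated start (x axis) of Sox5 and Sox6, with 1 point per library and a cross where no peak was called. Cho replicate 2 was placed by distance from the 5′ end. The Sox5 middle promoter (9.29 to 19.2) and the fifth Sox6 start (11.4 to 15.2) had peaks in all 4 libraries, while the start of the shorter Sox5 transcripts, the third Sox6 start and the fourth Sox6 start had none.

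By the starts listed in each build, the strongest start-site peak of Sox5 was placed by percentile among all promoters that held a peak. WT was at the percentile 48.1 and the deletion at 47.9, while Cho replicate 1 was at 34.8 and Cho replicate 2 at 9.34. The Cho replicate 2 value uses the 5′ end. Sox6 was at 53.7 in WT, at 40.05 in the deletion and at 47.2 and 39.2 in the Cho replicates. The Cho mean fold enrichment was 8.05 ± 1.75 (SD, n = 2) at Sox5 and 13.5 ± 2.37 (SD, n = 2) at Sox6. The Sox5 mean joins different starts, and with the middle promoter in both replicates it was 14.2 ± 6.98 (SD, n = 2). Over all genes, 62.6% of promoters held a peak in Cho replicate 1 and 69.4% in replicate 2, while WT had 66% and the deletion 71.5%. A peak in all 4 libraries was found at 58.8% of promoters, so the calls at Sox5 and Sox6 were common ones.

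Among 10720 genes with a promoter peak in all 4 libraries, likeness was taken as the summed absolute difference of the 4 percentiles. The nearest to Sox5 were Nrtn (14.9), Lhx1 (16.5) and Bok (16.9). Mamld1 (3.33), Atg4b (5.22) and Thap4 (5.22) were nearest to Sox6, and the last pair had equal values in every library. The low rank of Sox5 in Cho replicate 2 enters its likeness.

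Most peaks of both genes lay over 1 kb from the annotated starts of the gene. Introns held 27 of 32 Sox5 peaks in Cho replicate 1 and 93 of 109 in replicate 2, with 31 of 39 for WT and 69 of 81 for the deletion. At Sox6 introns held 30 of 37, 82 of 109, 30 of 43 and 75 of 101 in the same order. The windows searched are mostly the gene bodies themselves, of 954 kb at Sox5 and 567 kb at Sox6. The share of intron peaks over all peaks was not computed, so these counts are not shown to be particular to these genes. Sox5 had 2.77, 9.45, 3.38 and 7.02 peaks per 100 kb, against medians of 4.35, 9.02, 5.76 and 10.4 over all genes with the same flanks. Sox6 had 4.82, 14.2, 5.60 and 13.2, so it was more densely covered than Sox5 in each library. Long genes are a closer yardstick, because the 100 kb flanks of a short gene hold mostly neighbours. Among genes with a body of at least 200 kb, Sox6 ranked 200 of 863 for Cho replicate 1 and 68 of 887 for replicate 2, with WT at 210 of 863 and the deletion at 107 of 863. Sox5 ranked 517, 258, 425 and 441 in the same lists.

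Counts moved with list length. Among the 76242 peaks of highest −log10 q-value in each library, Sox5 had 32, 41, 34 and 33 peaks in the order Cho replicate 1, Cho replicate 2, WT and deletion, and Sox6 had 37, 52, 33 and 36. The gap between WT and the deletion in the full lists (39 against 81 at Sox5, 43 against 101 at Sox6) was therefore not seen in lists of equal length.

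Peaks were unevenly spread along Sox5. Between the middle promoter and the start of the shorter transcripts there were 4.95, 17.1, 4.57 and 11.4 peaks per 100 kb in the order Cho replicate 1, Cho replicate 2, WT and deletion. Between the 5′ end and the middle promoter there were 2.45, 7.86, 2.27 and 5.42, so the inner segment was 2.03, 2.18, 2.01 and 2.11 times as dense. The last segment, from the shorter transcripts to the 3′ end, had 3.37, 7.58, 8.43 and 10.1 per 100 kb and was the densest in WT. The longest stretch of the Sox5 body without a summit ran from 179 to 483 kb in Cho replicate 1 and from 141 to 452 kb in WT. It was 96.0 kb in Cho replicate 2 and 120 kb in the deletion, within the same part of the gene. At Sox6 the longest such stretch was 34.1 to 95.4 kb.

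**Figure D2:**
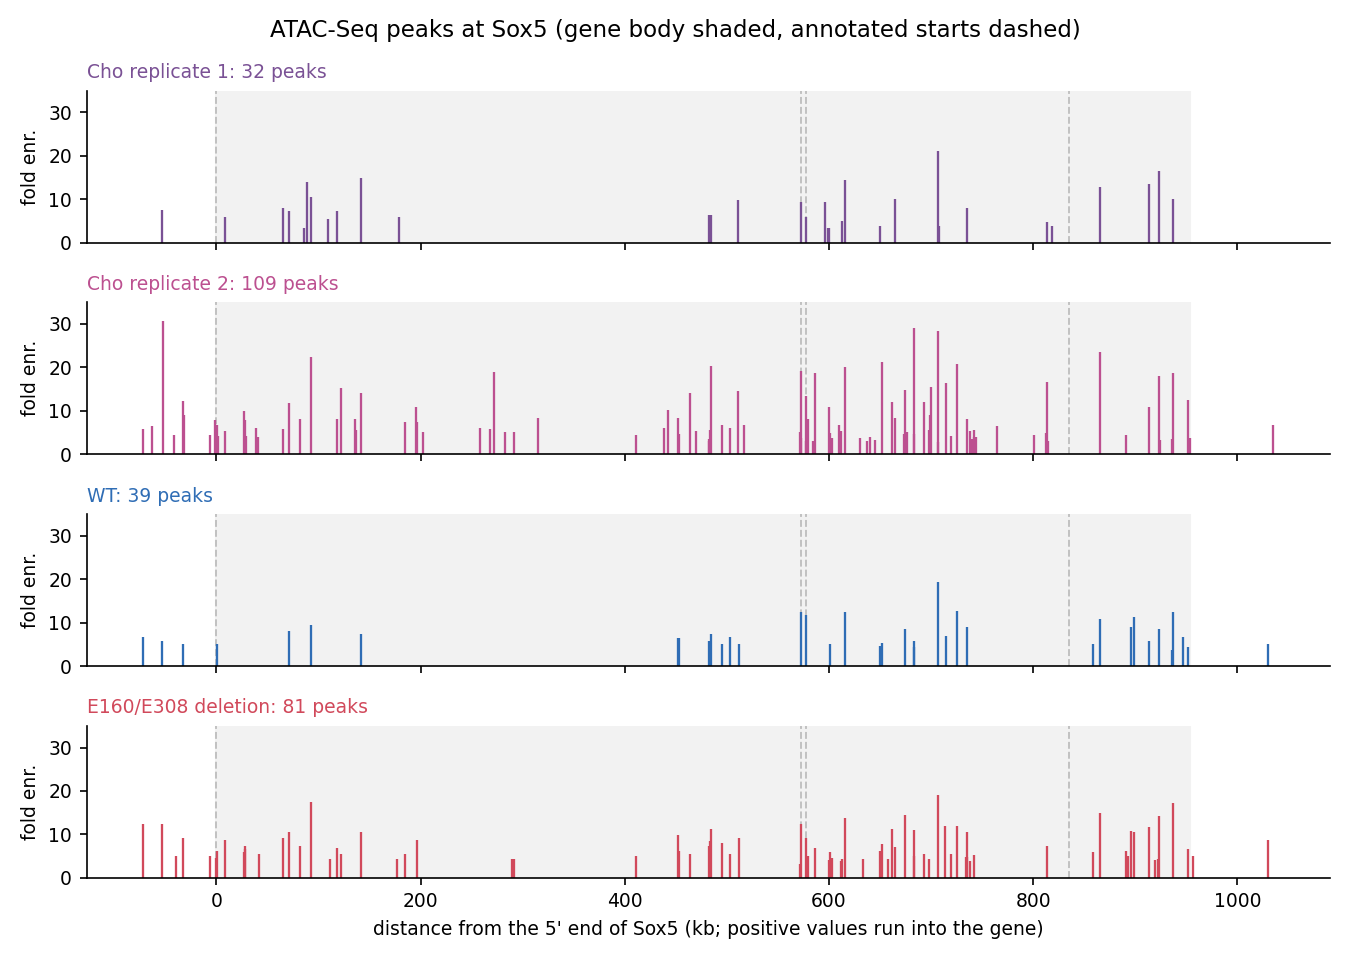
ATAC-Seq peaks at Sox5 in 4 libraries, as fold enrichment (y axis) against distance from the 5′ end of the gene in kb (x axis), with the gene body shaded and annotated starts dashed. The highest line of Cho replicate 1, WT and the deletion stands 707 kb inside the gene (21.1, 19.2 and 19.2), and WT has no peak between 141 and 452 kb.

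Joining overlapping peaks by distance from the 5′ end gave 132 sites at Sox5 and 135 at Sox6. At Sox5, 16 sites were called in all 4 libraries, 22 in 3, 30 in 2 and 64 in 1. At Sox6, 17 were called in all 4, 23 in 3, 35 in 2 and 60 in 1. Sites seen in a single library came mostly from Cho replicate 2 (44 at Sox5, 37 at Sox6), the deepest library. The deletion alone had 11 and 14, Cho replicate 1 alone had 8 and 8, and WT alone had 1 and 1. Of 32 Sox5 sites of Cho replicate 1, 22 were also called in replicate 2, and of 36 Sox6 sites, 25 were. The share over all peaks was not computed, since the Cho lists use different builds. Over the sites called in both Cho replicates, the Spearman correlation of fold enrichment was 0.44 at Sox5 (22 sites) and 0.28 at Sox6 (25 sites). Neighbouring sites share a library and its background, so these are descriptions.

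The strongest distal site of Sox5 lay in an intron 707 kb inside the gene, at chr6:144023363-144023732 in WT. The Cho replicates had fold enrichments of 21.1 and 28.3 there, WT had 19.2 and the deletion also had 19.2. It was the top Sox5 site in Cho replicate 1, WT and the deletion and ranked 3 in Cho replicate 2. WT and the deletion had 37 and 58 reads at the summit, or scaled pileups of 103 and 92.6. This is the sequence with 2 AP-1 matches.

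Another Sox5 intron site, at chr6:144114679-144115238 in WT, had 14.4, 20.2, 12.5 and 13.8 in the order Cho replicate 1, Cho replicate 2, WT and deletion. The intron site at chr6:144005282-144005629 had fold enrichments of 20.9, 12.6 and 12.05 in Cho replicate 2, WT and deletion and no peak in Cho replicate 1. Its 200 bp window held none of the 4 motifs. The highest Sox5 value in Cho replicate 2, 30.8, was at an intergenic site 52.7 kb upstream of the gene, which had 7.60, 5.88 and 12.3 in Cho replicate 1, WT and deletion.

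The strongest distal sites of the Sox6 region lay outside the gene. The highest in WT, at chr7:123236585-123236926, is at the shared promoter of 1110004F10Rik and 1700003G18Rik and is counted here by position only. It had 30.4, 33.2, 20.4 and 20.2 in the order used above. The next, at chr7:123243734-123243987, lay 61.6 kb upstream of Sox6 in an intron of 1110004F10Rik, with 25.3, 32.3, 19.7 and 24.4. It carries the repeated AP-1 letters shown above. Both were the highest pair of Sox6 sites in all 4 libraries. Within Sox6, the strongest distal WT site was an intron peak at chr7:122897822-122898086, with 15.2 in WT, 13.5 in the deletion, 13.4 in Cho replicate 2 and no peak in Cho replicate 1. None of the 4 motifs was in its 200 bp window.

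**Figure D3:**
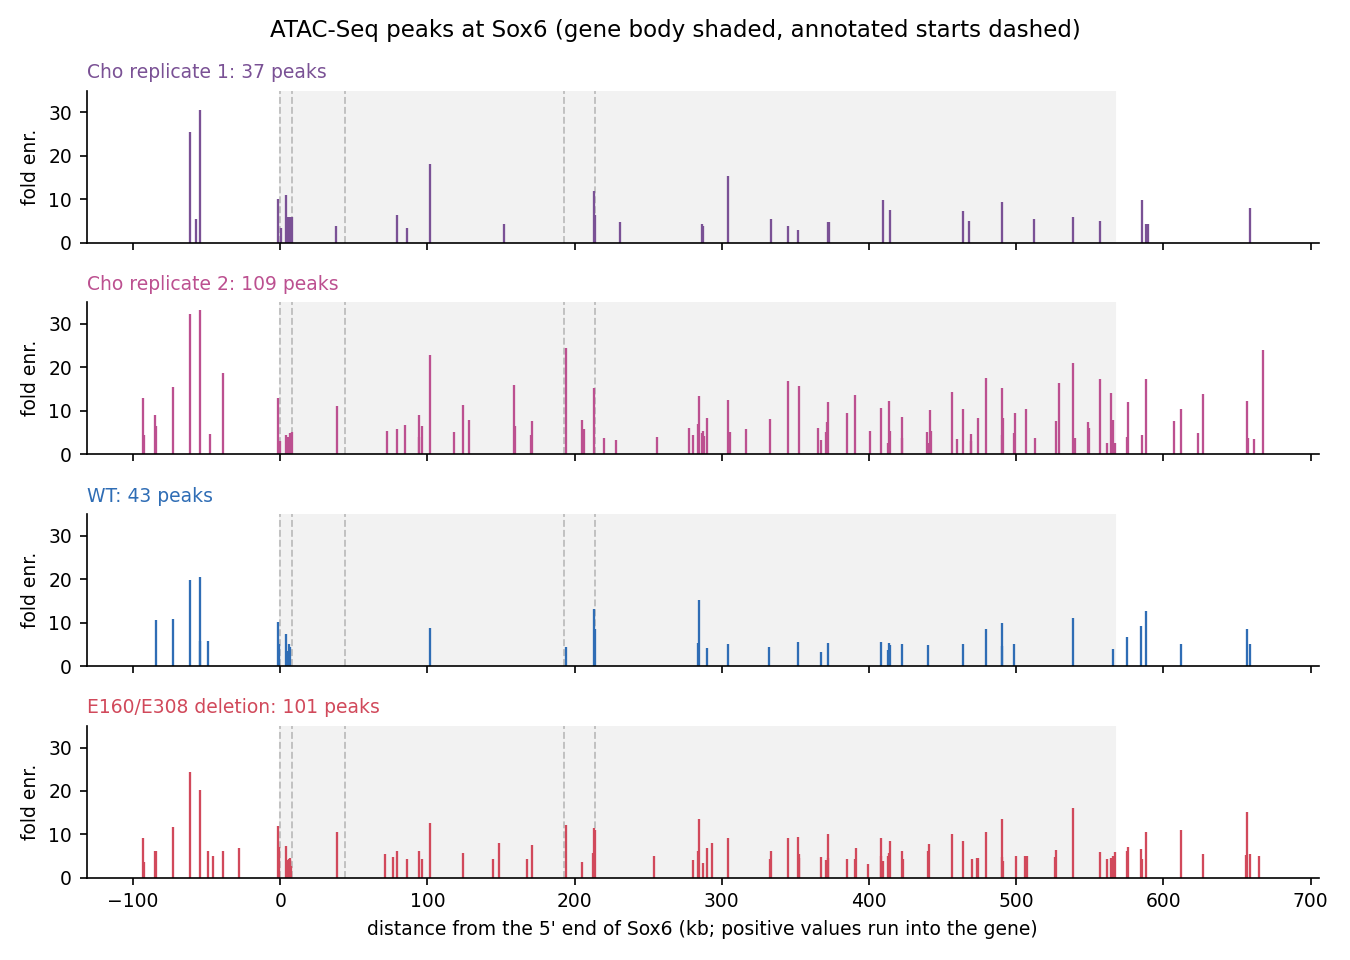
ATAC-Seq peaks at Sox6 in 4 libraries, as fold enrichment (y axis) against distance from the 5′ end of the gene in kb (x axis), with the gene body shaded and annotated starts dashed. In every library the pair of highest lines includes the site 61.6 kb upstream (19.7 to 32.3) and the neighbouring promoter (20.2 to 33.2), both outside the shaded gene body.

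Motif letters were counted in 200 bp around each summit of the 3 libraries on NCBIM37. In WT, AACAAT was in 5 of 39 Sox5 windows (12.8%) and 4 of 43 Sox6 windows (9.30%), beside 5.25% of all 90969 WT windows. In the deletion it was in 4 of 81 (4.94%) and 5 of 101 (4.95%), beside 5.96% of all, and in Cho replicate 1 in 3 of 32 (9.38%) and 6 of 37 (16.2%), beside 6.87%. TGANTCA was in 12 of 39 Sox5 windows (30.8%) and 8 of 43 Sox6 windows (18.6%) in WT, beside 19.4% of all. In the deletion it was in 27 of 81 (33.3%) and 15 of 101 (14.9%), beside 23.1%, and in Cho replicate 1 in 16 of 32 (50%) and 13 of 37 (35.1%), beside 33.2%. Among WT peaks overlapped in both other NCBIM37 lists, TGANTCA was in 10 of 16 Sox5 windows (62.5%) and 5 of 22 Sox6 windows (22.7%). Over all 52018 such windows the share was 24.9%. In this subset AACAAT was in 2 of 16 and 3 of 22, beside 4.77%. TGTGGT was there in 5 of 16 and 5 of 22, beside 18.9%, and TAATCC in 0 of 16 and 0 of 22, beside 4.23%. TGTGGT was in 9 of 39 and 10 of 43 WT windows, beside 19.8% of all, and TAATCC was in 0 of 39 and 0 of 43, beside 4.60%. TAATCC was in 2 of 32 and 2 of 37 windows in Cho replicate 1, beside 5.04%, and in 2 of 81 and 3 of 101 in the deletion, beside 5.21%.

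Sox5 and Sox6 were next compared between WT and the deletion of the Sox9 elements. Of 39 WT peaks at Sox5, 36 (92.3%, 95% exact binomial interval 79.1% to 98.4%) were overlapped by a deletion peak, and of 43 at Sox6, 41 (95.3%, 84.2% to 99.4%) were. Over all WT peaks the share was 95.9%, inside both intervals. In the other direction a WT peak overlapped 36 of 81 deletion peaks at Sox5 (44.4%) and 41 of 101 at Sox6 (40.6%), beside 49.4% of all deletion peaks. The intervals, which cover counting error only, ran from 33.4% to 55.9% and from 30.9% to 50.8%.

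The deletion peaks without a WT peak were weaker at the median. The same medians over all deletion peaks were not computed, so this is not shown to be particular to these genes. At Sox5 their median fold enrichment was 4.92 (45 peaks, median summit pileup 8 reads), against 10.5 for the 36 with a WT peak (18 reads). At Sox6 it was 4.92 (60 peaks, 9 reads) against 8.52 (41 peaks, 21 reads). Cho replicate 1 had a peak at 8 of the 45 Sox5 peaks and 10 of the 60 Sox6 peaks, beside 27.3% of all deletion peaks without a WT peak. Cho replicate 2 had a peak at 32 of the 45 and 43 of the 60, with no share over all peaks because that list is on another build. The deletion library had 8697 tags per Mb to 4622 in WT, and the part of depth in these peaks was not tested.

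The strongest deletion peaks without a WT peak were in introns. At Sox5 they stood at chr6:144068602-144068736 with 11.2 in the deletion and 12.01 in Cho replicate 2, and at chr6:144665021-144665183 with 9.22 in the deletion, 8.02 in Cho replicate 1 and 5.75 in Cho replicate 2. At Sox6 they stood at chr7:123143946-123144129 with 10.5 in the deletion, 3.80 in Cho replicate 1 and 11.2 in Cho replicate 2, and at chr7:122725934-122726227 with 10.1 in the deletion and 14.2 in Cho replicate 2. Each was thus open in at least 1 Cho replicate. WT peaks without a deletion peak were few and low. The stronger were at chr6:143783846-143783924 (6.62, 8 reads) and chr6:144129201-144129340 (5.04, 6 reads) at Sox5, and at chr7:122683892-122684024 (5.15, 6 reads) and chr7:122741949-122742026 (4.82, 6 reads) at Sox6.

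Among peaks in both lists, fold enrichment was higher in the deletion for 29 of 36 at Sox5 and 32 of 41 at Sox6, beside 75.3% of all shared peaks. The median log2 ratio of deletion to WT was 0.49 at Sox5 (range −0.37 to 1.06) and 0.29 at Sox6 (range −0.80 to 1.83), beside 0.28 over all 87274 shared peaks. On scaled pileup the medians were 0.25, 0.20 and −0.014 in the same order, and 24 of 36 Sox5 peaks and 27 of 41 Sox6 peaks were higher in the deletion, beside 49% of all. More than 2-fold higher fold enrichment in the deletion was found for 1 of 36 Sox5 peaks and 3 of 41 Sox6 peaks, beside 7.79% of all shared peaks. None of either gene was over 2-fold higher in WT, beside 0.071% of all. Over the shared sites the Spearman correlation of WT and deletion fold enrichment was 0.74 at Sox5 (36 sites), 0.69 at Sox6 (36 sites) and 0.72 over all shared peaks.

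Single sites were judged by the exact 95% interval of the ratio of scaled pileups, which covers counting error only. This interval included 1 for all 36 shared Sox5 peaks. At Sox6 it lay above 1 for 1 of 41 and below 1 for 1 of 41, beside 1.99% and 1.35% of all shared peaks. The strongest start-site peaks had pileups of 25 in WT and 40 in the deletion at the Sox5 middle promoter, and 27 and 40 at the fifth Sox6 start.

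The Sox6 peak above 1 was at chr7:123237007-123237152, 54.8 kb upstream, with 5.67 in WT and 20.2 in the deletion and a pileup ratio of 2.71 (1.51 to 5.23). In WT it was a separate shoulder of the neighbouring promoter peak, while the deletion list has 1 wider peak whose summit is that of the promoter, so the ratio sets different summits side by side. The peak below 1 was at chr7:123266568-123266899, 84.5 kb upstream in intergenic sequence, where WT had 10.6, the deletion 6.09 and Cho replicate 2 had 6.47. Its summits held 17 reads in WT and 10 in the deletion, a ratio of 0.339 (0.139 to 0.783). The next lowest Sox6 ratio, at chr7:122596959-122597251 downstream of the gene, came from 9.15 in WT and 6.55 in the deletion.

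The other high Sox6 ratio was the intron site beside the fourth start, at chr7:122988096-122988211, with 4.41 in WT and 12.2 in the deletion. Its pileups were 5 and 19 reads and its ratio 2.19 (0.79 to 7.50). At Sox5 the highest ratios of fold enrichment were at chr6:144783165-144783311, the upstream site named above, and in an intron at chr6:143816811-143816905. The intron site had 5.88 in WT and 11.7 in the deletion. The ratios of scaled pileup at these sites were 1.56 (0.629 to 4.40) and 1.48 (0.590 to 4.19). The lowest ratios of fold enrichment were at the non-coding starts, chr6:144152620-144152888, and in an intron at chr6:144227234-144227376. Their ratios of scaled pileup were 0.785 (0.438 to 1.43) and 0.576 (0.188 to 1.76). Other Sox5 peaks had higher scaled pileup ratios (up to 1.73) or ones below 0.785 (0.614 at chr6:143832038-143832176).

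**Figure D4:**
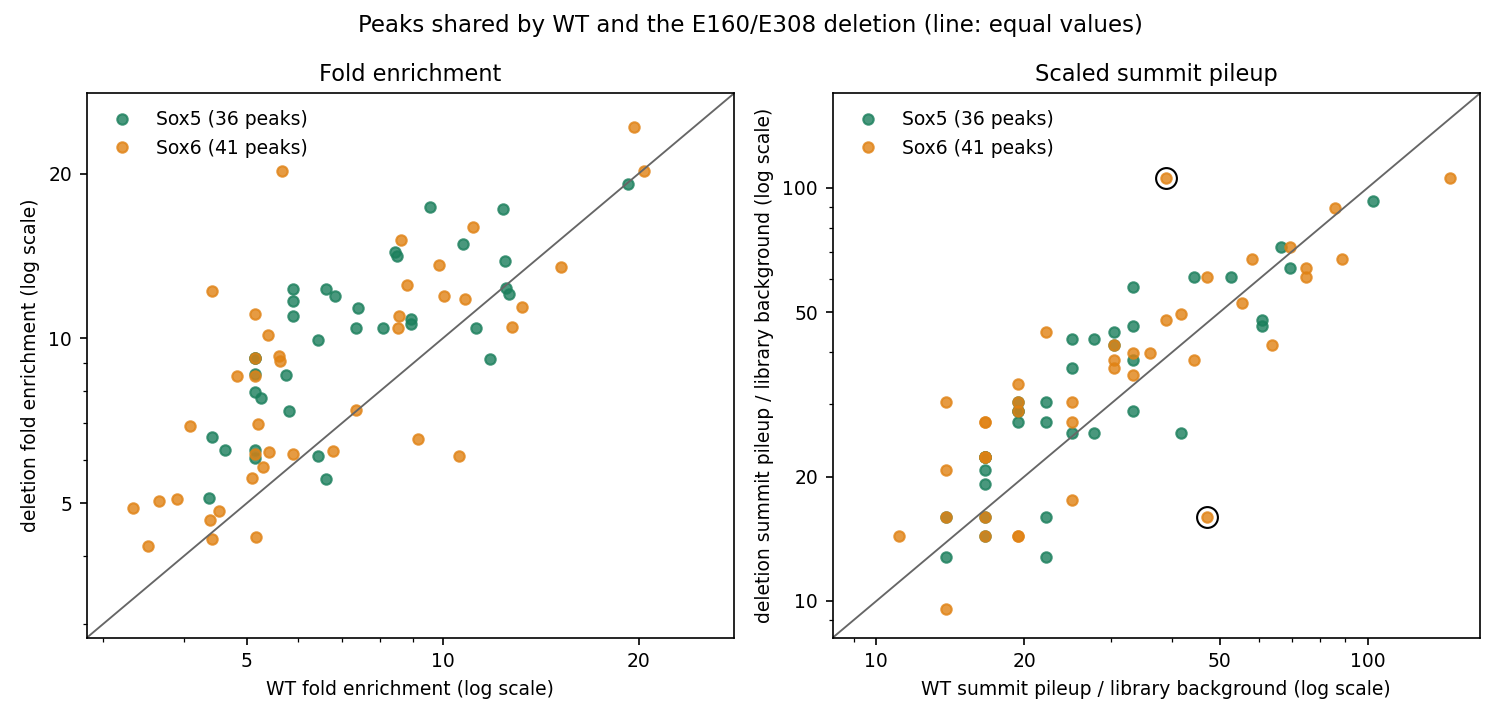
Peaks shared by WT (x axis) and the deletion (y axis) at Sox5 (36) and Sox6 (41), as fold enrichment on the left and scaled summit pileup on the right, on log axes with a line of equal values. Rings mark the 2 Sox6 peaks whose exact interval of the pileup ratio leaves out 1 (2.71 and 0.339). More points lie above the line for fold enrichment (29 and 32) than for scaled pileup (24 and 27).

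Promoters of a list of 20 partners and targets of the Sox trio were read the same way. Cho replicate 1 had peaks at 12 of them, Cho replicate 2 and WT at 17 and the deletion at 18, and 12 had a peak in all 4. Of all promoters, 62.6%, 69.4%, 66% and 71.5% held a peak in Cho replicate 1, Cho replicate 2, WT and deletion, and 58.8% in all 4. The counts for Cho replicate 1 and for all 4 libraries were thus close to the general shares. Those for Cho replicate 2, WT and the deletion were above them. Sox9, the partner of both, had 18.6, 11.8, 9.47 and 8.68 in Cho replicate 1, Cho replicate 2, WT and deletion. Sox13 had 6.76, 16.7, 12.8 and 13.6 in that order, close to the Sox5 middle promoter in WT. Col2a1, the main collagen of cartilage, had 12.2, 5.71, 5.56 and 5.04, and Matn3, a matrix protein, had 8.02, 19.9, 20.6 and 18.8. Comp and Snorc had no peak in any library, and Sox10, a Sox gene of neural crest, had a peak in the deletion alone, with 3.07.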

How the data were processed

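Per the study methods and the processing notes, the authors trimmed reads with fastp, aligned them with Bowtie2 (2.4.4), removed duplicates with Picard and called peaks with MACS2 (2.2.4) at a q-value of 0.05. For Picard the processing notes name version 2.20.7 and the methods another version. Fold enrichment as deposited is the ratio (pileup + 1)/(background + 1) at a summit. The deposited lists also hold the −log10 p-value and −log10 q-value, and the deposited score is 10 times the latter.

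Where a list named an interval more than once, the summit of highest fold enrichment was kept. Gene positions were those of GENCODE on NCBIM37 (mm9). The methods name mm9 for all libraries, but Cho replicate 2 follows GRCm38 and was read with RefSeq positions. RefSeq promoter sequences matched NCBIM37 once each, 7 at Sox5 and 9 at Sox6, with a constant offset within each locus. Distances from the 5′ end are therefore the same in both builds, and no coordinates were converted. Whole summit pileups were solved, with MACS2's Poisson model, from the p-value and the fold enrichment in 99.97% to 100% of entries, and the solution was tested on simulated data. The most frequent background gave the library background and, over the smallest peak width, the depth.

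Overlap meant 1 bp or more, and the strongest overlapping peak was used. Intervals are exact 95% ones (Clopper-Pearson, and conditional binomial for ratios). There was no test between genotypes. Alternatives were stricter q-values, other windows, overlaps and measures, lists of equal length and single Cho replicates. Other assays of the study were not used here, and some items are not reported here. Sites named were the strongest peak at each start and the 3 strongest distal WT peaks per gene. The 2 highest and 2 lowest ratios of fold enrichment and the 2 strongest peaks without a partner were also named. The Cho replicate 2 site 52.7 kb upstream was also named under the ratio rule. The genes, lists and rules were chosen with earlier results of these data known. Scripts ran in Python 3.11.15 with scipy 1.17.1, pandas 2.3.3 and numpy 2.4.6.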

Additional observations from a re-analysis of the deposited data

How the results depend on the processing

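No paired analysis was possible because each genotype has 1 library. With equal numbers of strongest peaks, Cho replicate 2 and the deletion had 41 and 33 peaks at Sox5 and 52 and 36 at Sox6. WT had 34 and 33, so the order of WT and the deletion turned at Sox5. With a q-value below 1e-05, Cho replicate 1 and WT each had 24 peaks at Sox6, and the deletion had 64. Other peak counts stayed within 1.5 times under stricter q-values, shorter flanks and every listed summit. The share of WT peaks with a deletion peak became 96.3% at Sox5 and 100% at Sox6 with a q-value below 1e-05. With the deletion list alone cut to its 90971 strongest peaks, as many as in WT, it was 79.5% at Sox5 and 72.1% at Sox6. The share over all WT peaks was not computed under these settings.

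At the gene start alone, WT and the deletion had promoter fold enrichments of 5.15 and 6.24 at Sox5, with no Cho replicate 1 peak, and 3.38, 13.0, 5.19 and 6.98 at Sox6 in the order Cho replicate 1, Cho replicate 2, WT and deletion. The Cho replicate 2 value of 13.0 is at the RefSeq 5′ end, 2032 bp outside the start used for the others. The strongest start-site values had WT above the deletion at both genes (12.5 and 12.4, 13.2 and 11.4), so the gene start alone turned that order. Within 2 kb, Sox6 in Cho replicate 2 had 24.5. As scaled pileup, the values were 15.3, 11.2, 69.3 and 63.9 at Sox5 and 19.7, 114, 74.9 and 63.9 at Sox6 in that order. Chosen after seeing the data, the same starts by distance gave 19.2 for Sox5 in Cho replicate 2 and a Cho mean of 14.2. Leaving out a Cho replicate gave 6.81 to 9.29 at Sox5 and 11.8 to 15.2 at Sox6.

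The median log2 ratio at Sox5 was 0.25 by scaled pileup and 1.17 by −log10 q-value, and at Sox6 0.97 by −log10 q-value, where all shared peaks had 0.76. Pairs with summits within 150 bp, also chosen after seeing the data, gave 0.51 and 0.29. The medians of Sox5 and Sox6 kept their sign under the alternatives run, while that of all shared peaks went from 0.28 to −0.014 by scaled pileup. The cause of these changes was not tested. WT summits of shared peaks held a median of 9 reads at Sox5 and 11 at Sox6, which limits what a single site can show.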
